A study of Mus musculus with 6 samples.

Results

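The genes described here encode the SR and hnRNP splicing factors, 30 of the 19680 genes in the deposited table. They were taken by name and class: every row annotated as protein-coding whose symbol starts with Srsf and a digit (10 genes) or with Hnrnp (20 genes). RNA was sequenced from B cells of the germinal center (GC), the structure in which activated B cells proliferate and mutate their antibody genes, which were sorted from C57BL/6 spleens by their B220+ CD38- FAS+ surface phenotype. The mice were 6 to 8 weeks old when immunized and the cells were taken 14 days after 100 µg of NP-CGG, a hapten-carrying protein antigen, was given intraperitoneally. The 3 WT libraries came from Senp1flox/flox mice and the 3 cKO libraries from Senp1flox/flox Cγ1-Cre mice, so the floxed allele and the immunization were shared by all 6 and the Cre transgene was carried by cKO alone. Senp1 encodes a protease that takes the small modifier SUMO off its targets. Cγ1-Cre is driven from the constant region locus of IgG1, which is transcribed in B cells after activation, so deletion is limited to cells that have turned it on. The labels speak of paired mice without tying a mouse or pair to a library, and p-values therefore measure the spread between these libraries, which may be technical.

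SR proteins carry RNA recognition motifs and a tail rich in alternating arginine and serine. They bind exons and recruit the spliceosome, and kinases of the SRPK and CLK families phosphorylate the tail. Proteins of the hnRNP group coat nascent transcripts, and many of them favour exon skipping or act in export, stability and translation of mRNA. Members of both families limit their own level by splicing in exons or retaining introns that send their transcripts to nonsense-mediated decay. In lymphocytes some of them act on the exons of CD45 and on the choice between membrane and secreted antibody mRNA, and many hnRNP proteins are known SUMO substrates. Reads were summed per gene in the deposited table, so the values below are transcript levels and splicing itself was not measured.

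The libraries held 3019152 to 10339054 reads assigned to genes, the 2 shallowest being cKO replicates 2 and 3. Senp1 measured 891 ± 23.7 normalized counts in WT against 399 ± 26.3 in cKO (SD, n = 3 each), with no overlap between the groups and a limma adjusted p of 0.111. All 10 GC B cell marker genes were detected in every library, with a summed level of 32637 to 33594 normalized counts in WT against 30916 to 33212 in cKO. Markers of T cells summed to 647 to 730 in WT against 531 to 1742 in cKO, with the highest value in cKO replicate 2, where Cd3e was at 140 against 5.98 to 27.1 elsewhere. Lck alone made up 484 to 574 of these sums in WT and 470 to 691 in cKO. Cd3d, Cd3g and Cd8a had 0 reads in cKO replicate 3. Macrophage markers summed to 124 to 313 in WT against 306 to 501 in cKO, again highest in cKO replicate 2. Markers of naive or memory B cells had higher cKO means in 8 of 8, with sums of 2409 to 5331 in WT and 4054 to 9737 in cKO, highest in cKO replicate 2, where Ighd was at 1418 against 62.4 to 374 elsewhere. The 10 genes of the G2/M phase had lower cKO means in 10 of 10, and their sum ran from 14931 to 26908 in WT against from 10308 to 21658 in cKO, lowest in cKO replicate 2. Mitochondrial genes took 2.71% to 9.83% of the reads in WT and 3.66% to 19.1% in cKO. The part of these differences in the results below was not tested. Fewer cells of a type and less RNA per cell cannot be told apart in such libraries.

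No SR or hnRNP gene passed the test between genotypes. With limma on log2(normalized count + 1) and Benjamini-Hochberg adjustment over 14678 genes, 0 of the 30 were called at an adjusted p under 0.05 (background 0%), and 0 of the 30 had an unadjusted p under 0.05 (background 5.15%, and 2.17% for those lower in cKO). Their adjusted p-values lay between 0.915 and 0.993. The count tests run on recovered reads gave the same count: edgeR, DESeq2 and limma-voom each called 0 members, with 0 at an unadjusted p under 0.05 (backgrounds 0%, 0.117% and 0% for calls, 5.66%, 2.84% and 5.17% for the unadjusted p). By the authors' deposited table, none of the 30 is called, each with the same adjusted p of 0.9996. The share of all genes called there is not given here, so that count has no background beside it. Leaving aside Hnrnpll, which was barely transcribed, the log2 differences of the other 29 ran from -0.31 to 0.06. Their standard errors were 0.12 to 0.25, and each of the 29 intervals included 0. The widest reach of these 95% confidence intervals was 1.54-fold in either direction, so a change larger than that was outside the interval of every one of the 29.

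**Figure D1:**
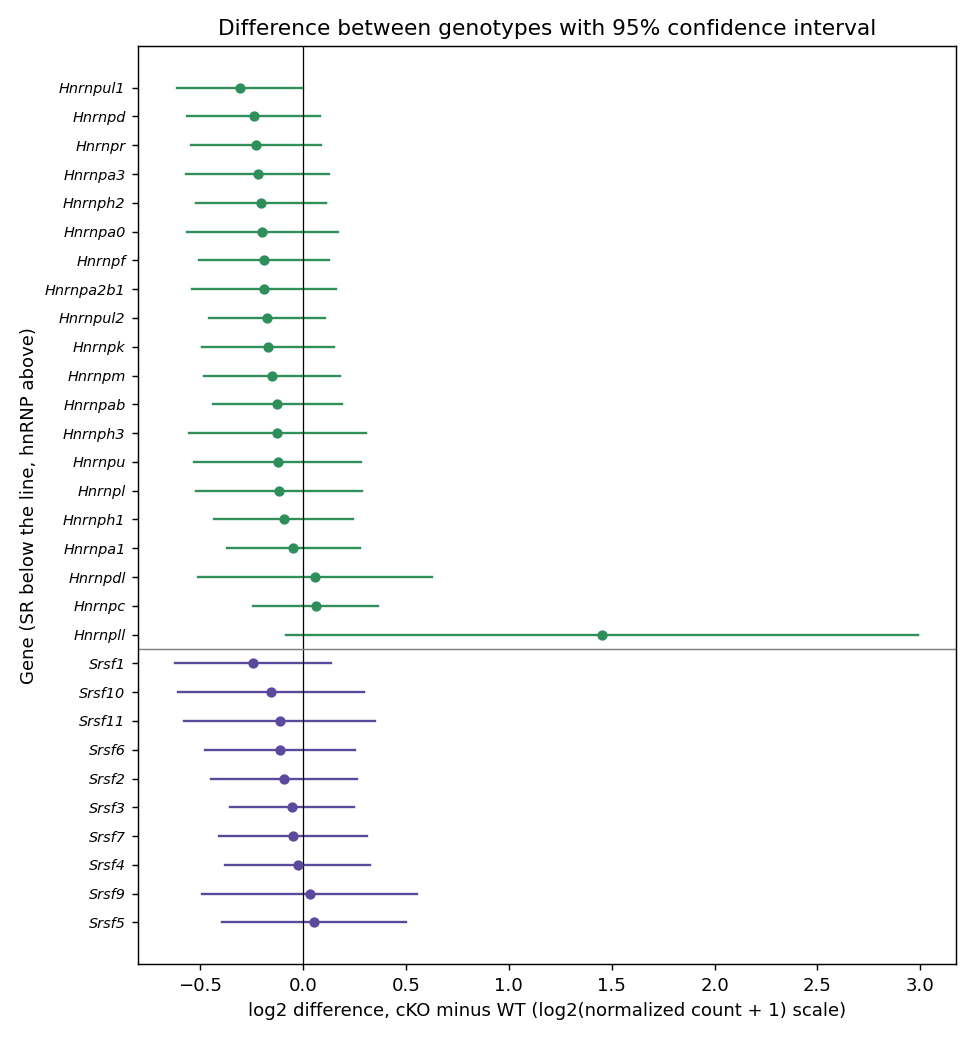
The horizontal axis gives the log2 difference of cKO minus WT on the log2(normalized count + 1) scale, with a point for the limma estimate and a line for its 95% confidence interval, for 10 SR genes (below the grey line) and 20 hnRNP genes (above it), from 3 libraries per group. All 30 intervals include 0, and 25 of the 30 estimates lie below 0.

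The estimates leaned to the cKO-low side. Negative log2 differences were found for 25 of the 30 genes, against 50.2% of all genes tested and 56.7% of the 7030 genes whose mean reached 100. By family, 8 of 10 SR genes were negative with a median of -0.07, and 17 of 20 hnRNP genes with a median of -0.16, where the median of all genes tested was -0.0019. The groups did not overlap for 3 members, each lower in cKO (background 5.28%), and for 0 members in the other direction (background 6.28%). The count of negative values varied between replicate numbers: comparing single libraries, it was 17 of 30 within replicate 1, 28 within replicate 2 and 21 within replicate 3. Without WT replicate 2 and cKO replicate 2 it was 16 of 30, an alternative chosen after the values were seen. The SR median was -0.04 without WT replicate 2, and the hnRNP median -0.10 without WT replicate 2 and -0.09 without cKO replicate 2. Over the libraries of replicates 2 and 3 the count was 26 of 30. WT replicate 2 was the highest of the 6 libraries for 16 members and cKO replicate 2 the lowest for 12.

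**Figure D2:**
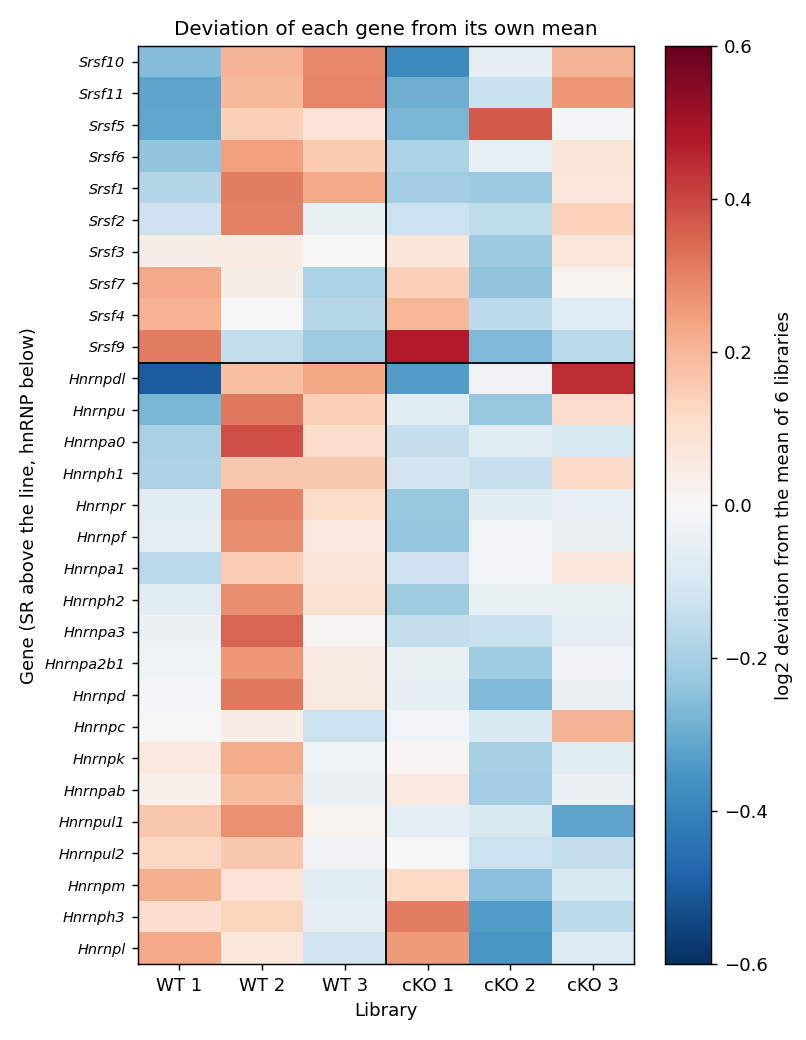
Each row is a gene (10 SR genes above the line, 19 hnRNP genes below it, Hnrnpll left out), each column a library, and the colour gives the log2 deviation from that gene's mean over the 6 libraries, on a scale from -0.6 to 0.6. WT replicate 2 is mostly red and cKO replicate 2 mostly blue, while replicate 1 of both genotypes shares its pattern within many rows.

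Hnrnpul1 had the smallest p of the 30. It encodes a nuclear protein of the hnRNP U group that takes part in transcription and in the response to DNA breaks. Its WT libraries held 2207, 2383 and 2003 normalized counts in order of replicate number and its cKO libraries 1900, 1852 and 1585. Every cKO value was below every WT value, with cKO replicate 3 the lowest. The log2 difference was -0.31 ± 0.13 (SE), a 1.24-fold lower level in cKO (95% confidence interval of the log2 difference -0.61 to 0.00044), with a limma adjusted p of 0.915. An exact two-sided permutation test gave p = 0.1, the smallest that 3 against 3 libraries allow. The difference was -0.22 within replicate 1 and -0.35 within replicates 2 and 3, and over the alternatives run it stayed negative, between -0.38 and -0.21. Hnrnpul1 (ENSMUSG00000040725) lies on chromosome 7 at 25721165 to 25754757 of GRCm38.

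The 250 bases before the RefSeq start sites (GRCm38.p6) were read to show what the members' promoters share, and 28 of the 30 genes were matched by symbol, with 40 start sites. Hnrnpll and Hnrnpul2 were not. The windows below are those of Hnrnpul1, of the abundantly transcribed Hnrnpa2b1, of its paralog Hnrnpa1, whose level differed least between genotypes in that subfamily, and of the SR gene Srsf6. None of these 4 windows overlapped an annotated exon, which held for 12 of the 40. The other windows overlapped exons of the gene itself or of another gene. They are written 5′ to 3′ on the gene's strand, and capitals mark letters of the searched motifs on either strand.
Hnrnpul1, chr7:25754760-25755009, minus strand: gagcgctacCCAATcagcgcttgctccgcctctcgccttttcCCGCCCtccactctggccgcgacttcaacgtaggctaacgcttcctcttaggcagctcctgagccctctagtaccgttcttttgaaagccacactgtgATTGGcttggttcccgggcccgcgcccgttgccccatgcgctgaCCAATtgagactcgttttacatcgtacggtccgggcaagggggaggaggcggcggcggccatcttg
Hnrnpa2b1, chr6:51469895-51470144, minus strand: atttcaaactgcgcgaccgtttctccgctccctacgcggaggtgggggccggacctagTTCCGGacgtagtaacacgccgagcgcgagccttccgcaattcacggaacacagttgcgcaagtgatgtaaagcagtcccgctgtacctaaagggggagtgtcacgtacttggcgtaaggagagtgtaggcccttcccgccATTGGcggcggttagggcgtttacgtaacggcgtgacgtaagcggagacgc
Hnrnpa1, chr15:103240147-103240396, plus strand: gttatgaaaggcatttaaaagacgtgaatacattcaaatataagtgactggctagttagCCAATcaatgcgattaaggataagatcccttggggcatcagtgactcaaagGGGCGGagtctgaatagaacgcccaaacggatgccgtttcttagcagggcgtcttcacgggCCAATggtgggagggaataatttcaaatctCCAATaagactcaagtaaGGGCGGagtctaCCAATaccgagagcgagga
Srsf6, chr2:162931258-162931507, plus strand: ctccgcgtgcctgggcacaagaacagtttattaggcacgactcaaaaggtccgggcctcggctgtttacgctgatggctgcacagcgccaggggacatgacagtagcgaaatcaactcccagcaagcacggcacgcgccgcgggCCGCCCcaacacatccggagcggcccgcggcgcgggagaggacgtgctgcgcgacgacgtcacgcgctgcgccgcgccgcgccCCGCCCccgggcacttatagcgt
Over the 40 windows the median GC content was 68.2% and the median number of CpG dinucleotides 24, against 52.4% and 6 over all 32851 windows of the same length. That wider set was not limited to genes transcribed in these cells or matched for transcript level. GGGCGG (the GC box) was found on either strand in 32 of the 40 member windows (23 of 28 genes) and 32.7% of all windows. CCAAT was found in 20 of 40 (16 of 28 genes) and 33.8%. CCGGAA (the core bound by ETS factors) was found in 15 of 40 (11 of 28 genes) and 12.03%. Windows of the same gene overlapped for Srsf4, Hnrnpa2b1 and Hnrnph1, so some copies of a motif were counted more than once. CACGTG (an E-box) was found in 3 of 40 and 6.02%, TATAAA in 3 of 40 and 12.4%, and the NRF1 motif in 1 of 40 and 0.782%. Matches of different motifs shared bases in 2 of the 40 windows. These matches are a description of letters, not of sites or causes.

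Among the SR genes, Srsf1 had the largest estimated difference. It encodes the founding SR protein, which acts in constitutive and alternative splicing. Srsf1 measured 2490, 3478 and 3289 normalized counts in WT against 2428, 2412 and 2947 in cKO. WT replicate 1 lay among the cKO values, so the groups overlapped. The log2 difference was -0.24 ± 0.17 (SE), with a 95% confidence interval of -0.62 to 0.14 and a limma adjusted p of 0.928. It was -0.04 within replicate 1 and -0.34 within replicates 2 and 3. Srsf9, the paralog of Srsf1 with a short tail, measured 378 ± 77.5 in WT against 392 ± 116 in cKO (SD, n = 3). It was high in replicate 1 of both genotypes, at 467 and 525, against 313 to 341 in the other 4 libraries. Per kb of exon, the level of Srsf1 was 1.19 to 2.28 times that of Srsf9 in WT against 1.03 to 1.95 times in cKO, overlapping ranges.

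Srsf3, a short SR protein that couples splicing to mRNA export and 3′ end formation, was level across WT. Its libraries held 2672, 2691 and 2601 normalized counts in WT against 2744, 2240 and 2737 in cKO. In cKO, replicate 2 stood below the narrow WT range and the other two libraries just above it, and the log2 difference was -0.05 (95% confidence interval -0.35 to 0.25). Its paralog Srsf7 measured 1255 ± 180.2 in WT against 1212 ± 159.6 in cKO, with a log2 difference of -0.05 and replicate 1 highest in both genotypes. Srsf2, an SR protein of the nuclear speckles that also acts in transcription elongation, held 1734, 2328 and 1836 in WT against 1728, 1701 and 2081 in cKO. The ranges overlapped, with WT replicate 2 the highest library, and the log2 difference was -0.09.

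Srsf4, Srsf5 and Srsf6 form the subgroup with long arginine and serine tails. By the exon length of protein-coding transcripts, the mean level over the 6 libraries was 1138 normalized counts per kb for Srsf5, 999 for Srsf3 and 949 for Srsf2, the highest of the SR genes. The order turned with the exon length of all annotated transcripts, which gave 643 for Srsf2, 498 for Srsf1, 473 for Srsf5 and 331 for Srsf3. Srsf5 measured 1497, 2057 and 1975 normalized counts in WT against 1538, 2397 and 1846 in cKO. Its highest library was cKO replicate 2 and its lowest WT replicate 1, and the groups overlapped (log2 difference 0.05, 95% confidence interval -0.39 to 0.50). Srsf6 held 1548, 2170 and 2035 in WT against 1599, 1767 and 1922 in cKO. Replicate 1 was the lowest library of each genotype, the groups overlapped, and the log2 difference was -0.11. The ratio of Srsf5 to Srsf6 per kb was 2.11 to 2.16 in WT, 2.15 and 2.14 in cKO replicates 1 and 3 and 3.02 in cKO replicate 2. With the length of all transcripts it was 1.14 to 1.17 in WT and 1.16 to 1.64 in cKO. Srsf4 measured 718 ± 95.3 in WT against 706 ± 94.9 in cKO.

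Srsf10 and Srsf11 are SR-related regulators of exon choice. Srsf10, which turns into a repressor when dephosphorylated, measured 933, 1289 and 1366 in WT against 859, 1074 and 1289 in cKO. Srsf11 measured 1261, 1795 and 1921 in WT against 1280, 1429 and 1881 in cKO. In both genes replicate 1 of each genotype was the lowest of its group, and the groups overlapped. Their log2 differences were -0.16 (95% confidence interval -0.61 to 0.30) and -0.11 (-0.58 to 0.35).

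The A/B proteins are the most abundant hnRNPs of the nucleus and bind exonic and intronic silencers. By the exon length of protein-coding transcripts Hnrnpa2b1 had the highest level of the 30, a mean of 3802 normalized counts per kb, and ranked 83rd of the 12041 protein-coding genes ranked. By that of all transcripts it stood at 1406, below Hnrnpa1 at 1499. It held 9041, 11036 and 9511 normalized counts in WT against 8933, 7941 and 9065 in cKO. The cKO maximum was just above the WT minimum, and the log2 difference was -0.19 (95% confidence interval -0.54 to 0.16). Hnrnpa1, at 2464 per kb of the protein-coding length, held 4216, 5229 and 4978 in WT against 4326, 4665 and 4941 in cKO. It overlapped throughout, with a log2 difference of -0.05 (95% confidence interval -0.37 to 0.28). Hnrnpa3, a further A/B paralog, held 6177, 8070 and 6413 in WT against 5747, 5779 and 6097 in cKO. Its cKO values were all below WT, by a small margin to WT replicate 1, with a log2 difference of -0.22 ± 0.15 (SE), a limma adjusted p of 0.928 and an exact permutation p of 0.1. Hnrnpa0 measured 1104 ± 221 in WT against 950.5 ± 26.3 in cKO.

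In the D subfamily, whose proteins bind AU-rich elements and regulate mRNA decay, the members differed in pattern. Hnrnpd (AUF1) held 2471, 3096 and 2582 in WT against 2390, 2069 and 2429 in cKO. All 3 cKO libraries lay below WT, with cKO replicate 2 the lowest, and the log2 difference was -0.24 ± 0.14 (SE), a limma adjusted p of 0.926 and an exact permutation p of 0.1. Within replicate 1 it was -0.05 and within replicates 2 and 3 -0.33. Its paralog Hnrnpdl had the largest standard error of the 29 other than Hnrnpll (0.25), at 1801 ± 465 in WT against 1875 ± 516 in cKO. Hnrnpdl was lowest in replicate 1 of each genotype, at 1266 and 1422, against 1765 to 2437 in the other 4 libraries. Hnrnpab, which binds single-stranded DNA and RNA, held 3829, 4285 and 3666 in WT against 3910, 3244 and 3656 in cKO. Only cKO replicate 2 and, narrowly, cKO replicate 3 were below the WT range, and the log2 difference was -0.13 (95% confidence interval -0.44 to 0.19).

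The F/H proteins bind runs of guanine near splice sites and poly(A) sites. Hnrnph2, the X-linked copy, held 616, 782 and 688 in WT against 556, 624 and 625 in cKO. WT replicate 1 was the only WT value inside the cKO range, and the log2 difference was -0.20 (95% confidence interval -0.52 to 0.11). Hnrnph1, its close paralog, measured 2312 ± 309 and 2161 ± 218, and Hnrnpf 2506 ± 300.1 and 2195 ± 176, in WT and cKO. Hnrnph3 was among the lowest, at 291 ± 19.9 in WT against 271 ± 65.3 in cKO, with cKO replicate 1 the highest library (345) and cKO replicate 2 the lowest (220.2). Per kb, Hnrnph1 stood 5.53 to 6.30 times above Hnrnph2 in WT against 5.63 to 6.72 times in cKO, and 2.37 to 2.71 and 2.42 to 2.89 times with the length of all transcripts.

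Hnrnpk, a KH-domain protein that binds C-rich RNA and DNA, held 5930, 6651 and 5596 in WT against 5747, 4963 and 5421 in cKO. A single cKO library, replicate 1, lay inside the WT range, and the log2 difference was -0.17 (95% confidence interval -0.49 to 0.15). Hnrnpc, which binds runs of uridine and keeps cryptic exons out, was 1 of the 5 members with a higher cKO estimate, at 2656 ± 158 in WT against 2781 ± 299.8 in cKO. Its log2 difference was 0.06 (95% confidence interval -0.24 to 0.37), with cKO replicate 3 the highest library at 3119. Hnrnpm measured 2377 ± 229 and 2147 ± 279, in WT and cKO.

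Hnrnpl and Hnrnpll are paralogs that repress the variable exons of CD45, and Hnrnpll is known for its rise in plasma cells and memory T cells. Hnrnpl held 2661, 2376 and 2095 normalized counts in WT against 2713, 1786 and 2145 in cKO. Replicate 1 was highest in both genotypes and the groups overlapped, with a log2 difference of -0.12 (95% confidence interval -0.52 to 0.29). Hnrnpll was near the floor of detection, with 13, 1 and 2 reads in WT and 9, 8 and 4 in cKO, or 6.57, 1.06 and 1.71 and 4.88, 15.2 and 8.17 normalized counts. WT replicate 1 lay inside the cKO range. The log2 difference was 1.46 ± 0.67 (SE), with a 95% confidence interval of -0.08 to 2.99 and a limma adjusted p of 0.915. It was -0.36 within replicate 1, and with pseudocounts of 0.5 and 5 it was 1.63 and 0.83. The highest value fell in cKO replicate 2, the library with the highest sums of T cell (1742) and plasma cell (16983) markers. Jchain alone made up 13478 of that plasma cell sum. Sdc1, Irf4 and Tnfrsf17 were also highest in cKO replicate 2, while Xbp1, Prdm1 and Slamf7 were higher in WT replicate 1. Whether T cells or plasma cells carried the Hnrnpll reads was not tested.

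Hnrnpu, a chromatin and RNA scaffold protein, held 496, 749 and 665 in WT against 575, 514 and 647 in cKO. Its ranges overlapped, and the log2 difference of -0.12 was 0.21 within replicate 1 and -0.29 within replicates 2 and 3. Hnrnpul2, the paralog of Hnrnpul1, measured 2729 ± 178 in WT against 2414 ± 135 in cKO, with a log2 difference of -0.18. Per kb, the ratio of Hnrnpul1 to Hnrnpul2 was 1.02 to 1.08 in WT and 0.882 to 1.02 in cKO, and the nearest libraries of the groups were 1.0214 and 1.0208. It was the 1 ratio without overlap among the 12 paralog pairs compared, and the other 11 overlapped. Of all single genes tested, 5.28% were lower in cKO without overlap and 6.28% higher. Ratios of other gene pairs were not computed. Hnrnpr, related to SYNCRIP, held 918, 1184 and 1040 in WT against 821, 921 and 931 in cKO. WT replicate 1 alone lay within the cKO range, and the log2 difference was -0.23 (95% confidence interval -0.54 to 0.09).

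As a class these genes were highly transcribed. Scaled to the exon length of their protein-coding transcripts in GENCODE M21, 24 of the 30 stood above the 90th percentile of the 12041 protein-coding genes ranked, and 22 did with the exon length of all transcripts, an alternative chosen after the values were seen. That length lowered the level of 12 of the 30 by more than 1.5 times. By the protein-coding length the lowest of the 29 was Hnrnpr at 44.7 normalized counts per kb (percentile 51.8), which has 21696 annotated exon bases, and Hnrnpll stood at 2.01 (percentile 13.7). Together the 30 took 1.29% to 1.47% of all gene-assigned reads in WT and 1.11% to 1.28% in cKO, ranges that did not overlap, and the mitochondrial share of reads given above sits in the same total. The summed level per kb was 15885 to 18784 for hnRNP genes in WT and 14626 to 16171 in cKO. For SR genes it was 5492 to 6482 and 5551 to 6087. The ratio of the hnRNP sum to the SR sum was 2.89, 2.90 and 2.75 in WT against 2.82, 2.60 and 2.66 in cKO, overlapping in 1 library of each group, and 3.09 to 3.24 in WT and 3.01 to 3.16 in cKO with the length of all transcripts.

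**Figure D3:**
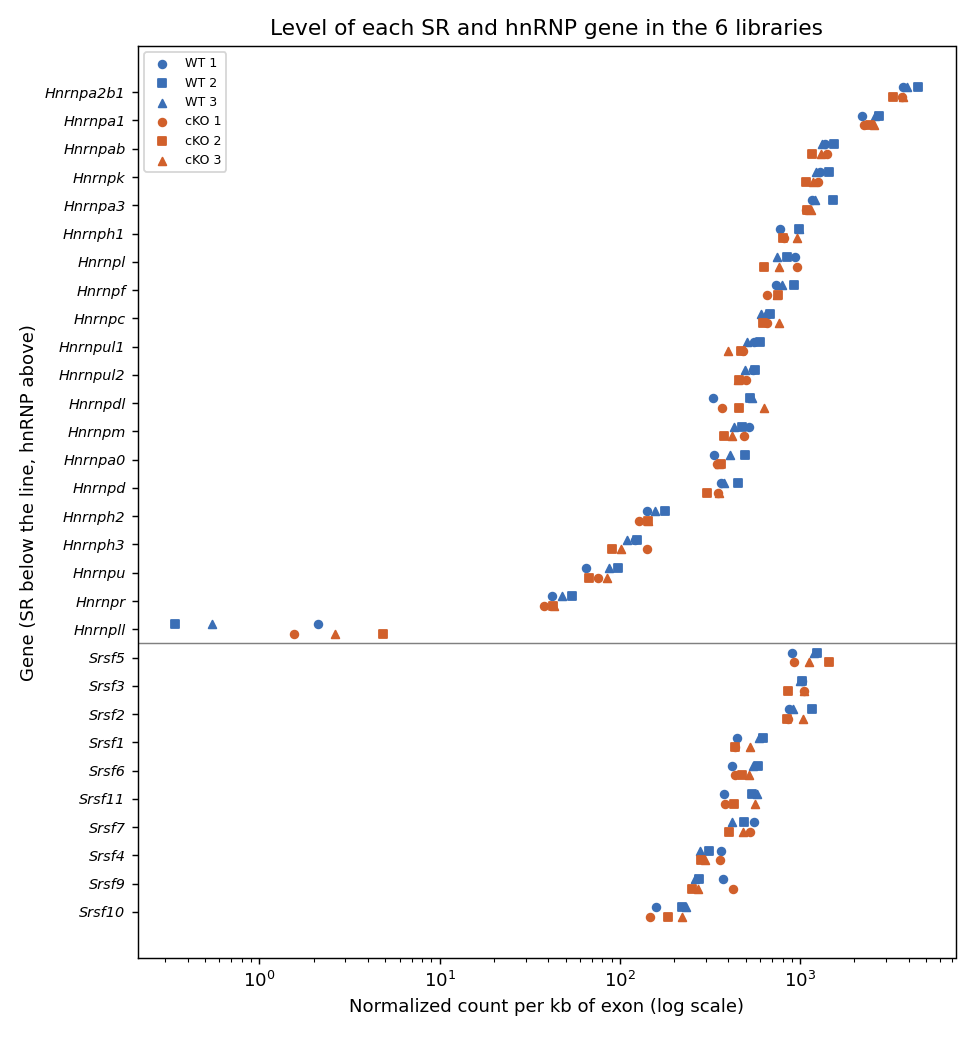
The horizontal axis is logarithmic and gives the normalized count per kb of protein-coding transcript exon in each of the 6 libraries (blue for WT, orange for cKO, the marker for the replicate number) for 10 SR genes below the grey line and 20 hnRNP genes above it, sorted by mean level. By this length Hnrnpa2b1 leads at a mean of 3802 and Hnrnpll trails at 2.01, while the length of all transcripts puts Hnrnpa1 (1499) above Hnrnpa2b1 (1406).

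Replicate 1 of both genotypes stood apart from the other libraries for 15 of the 30 members. For 10 of the 30 both replicate 1 libraries were below all 4 others (background 14.1%), and for 5 they were above all 4 (background 16.2%). The low set comprised Hnrnpdl, Srsf10, Srsf11, Srsf5, Srsf6, Hnrnpa0, Hnrnpr, Hnrnpa1, Hnrnpf and Hnrnph2, with log2 differences of replicate 1 minus the rest of -0.63 to -0.21. The high set comprised Srsf9, Hnrnpl, Srsf4, Srsf7 and Hnrnpm, higher by 0.25 to 0.59. The gap between replicate 1 and the rest was larger than the gap between genotypes for 20 of the 30 members, 10 of 10 SR genes and 10 of 20 hnRNP genes, and for 8704 of all 14678 genes tested and 4493 of the 7030 with a mean of 100 or more. Its median size over the 30 was 0.24 log2 units against 0.12 for the genotype difference. The same medians were 0.31 and 0.22 over all genes tested and 0.23 and 0.14 over those with a mean of 100 or more, so the share and the size for the 30 were near those of other genes. No source used here says what sets replicate 1 apart, and the G2/M sum was highest (26908 and 21658) and the mitochondrial share lowest (2.71% and 3.66%) in these libraries. With a term for replicate 1 against the others, limma called 0 members (background 0.0204%) and Hnrnpul1 alone had an unadjusted p under 0.05 (background 9.16%), with a limma adjusted p of 0.510. DESeq2 with the same term called 0 members (background 0.376%) and gave 1 an unadjusted p under 0.05 (background 4.87%), again Hnrnpul1.

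**Figure D4:**
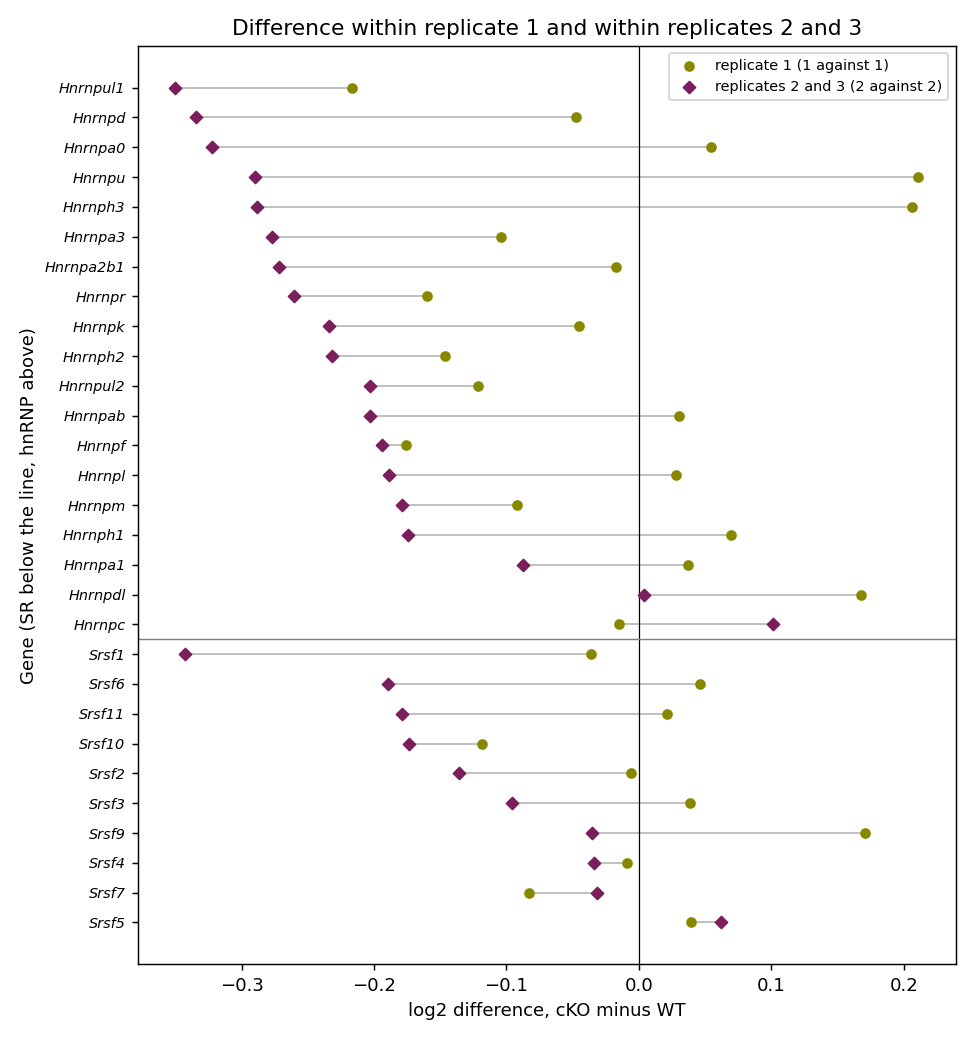
For 29 members (Hnrnpll left out) the horizontal axis gives the log2 difference of cKO minus WT within replicate 1 (circles, 1 library against 1) and within replicates 2 and 3 (diamonds, 2 against 2). Diamonds lie mostly left of 0, while the circles scatter around it, from -0.22 for Hnrnpul1 to 0.21 for Hnrnpu.

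Transcript forms of the kind used in autoregulation are annotated for many members. In GENCODE M21, 9 of 10 SR genes and 10 of 20 hnRNP genes have at least 1 transcript classed for nonsense-mediated decay, against 29.1% of the protein-coding genes tested. Transcripts with a retained intron are annotated for 22 of the 30, against 59.2%. The deposited values sum over these forms. Exons of Srsf4 share 43.0% of their bases with Gm12992 on the opposite strand, those of Hnrnpab 29.1% with Phykpl and those of Srsf2 15.6% with Mettl23. No source used here gives the strand setting of the counting, so reads of these partners cannot be told apart, and reads of close paralogs and processed copies of the A/B genes could likewise have been shared.

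The wider splicing machinery gave no call either. Over 6 related lists of 129 tested genes in all, limma called 0 genes and 4 had an unadjusted p under 0.05, fewer in proportion than the 5.15% of all genes tested. The genes named below are those with the smallest p of each list, given as values. Of 11 genes for SR protein kinases and import, 6 were lower and 5 higher in cKO (median -0.04). Srpk3, a kinase that phosphorylates SR tails, held 355, 307 and 361 normalized counts in WT against 480.5, 378 and 505 in cKO, higher in every cKO library (log2 difference 0.41, limma adjusted p of 0.915). Clk2, a nuclear kinase of SR proteins, measured 408 ± 49.2 and 571 ± 196, with cKO replicate 3 far above the others at 790.5. Among 21 SR-like coregulators, 11 were lower (median -0.02), and Scaf11, an SR-related factor of the spliceosome, measured 3582 ± 143 and 2841 ± 445 without overlap (log2 difference -0.34). Thrap3 (2314 ± 313 and 1897 ± 42.5) and Pnn (1009 ± 92.8 and 840.5 ± 97.1) also did not overlap. Of the 21, 4 were lower in cKO without overlap (background 5.28%) and 0 higher (background 6.28%). Of the 11 kinase and import genes, 1 was lower and 1 higher without overlap.

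Of 20 hnRNP proteins with other gene names, 16 were lower in cKO (median -0.12), a split near that of the hnRNP genes themselves. Pcbp4, which had the smallest p of this list, was higher in cKO, with overlapping groups. It measured 48.9 ± 12.4 in WT and 64.6 ± 6.16 in cKO (log2 difference 0.42). Nono, a paraspeckle protein, measured 2860 ± 221 and 2501 ± 94.8, and Ptbp3, a polypyrimidine tract binder, 3081 ± 804 and 2403 ± 567. Among 14 tested tissue-type regulators of splicing, 10 were lower (median -0.13), and 8 of the list's 22 genes were not tested, Rbfox1, Rbfox2 and Esrp1 among them. Celf1, which binds GU-rich RNA, held 1451, 1424 and 1266 in WT against 1169, 1046 and 964 in cKO. Every cKO value was below WT, with a log2 difference of -0.38 and a limma adjusted p of 0.915. Mbnl3, a muscleblind protein, measured 249 ± 48.7 and 178 ± 19.1 (log2 difference -0.47). In the core spliceosome 31 of 48 genes were lower (median -0.05), and Cdc5l, of the Prp19 complex, measured 935 ± 28.9 and 774 ± 80.2 without overlap. Exon junction and nonsense-mediated decay genes split 7 lower and 8 higher (median 0.02), with Upf3a, a decay cofactor, at 184 ± 16.1 and 225 ± 19.2. Groups without overlap, cKO lower and cKO higher, numbered 1 and 0 of the 20 hnRNP proteins and 3 and 1 of the 14 tissue-type regulators. They numbered 2 and 0 of the 48 core genes and 0 and 2 of the 15 exon junction and decay genes (backgrounds 5.28% and 6.28%).

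**Figure D5:**
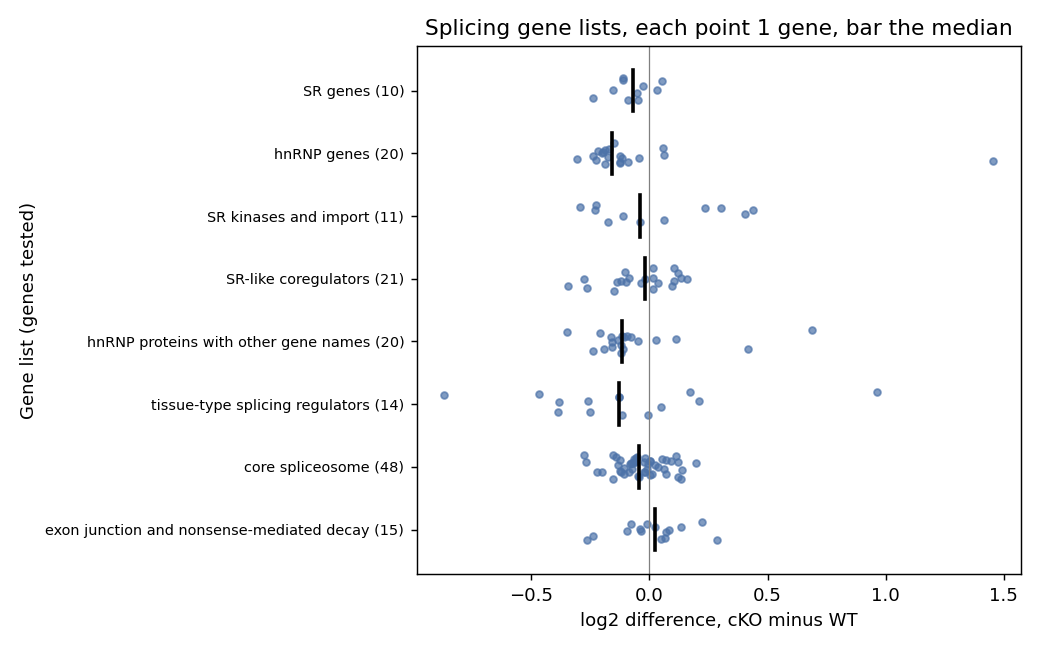
Each point is the log2 difference of cKO minus WT of 1 gene, jittered vertically, with a black bar at the list's median and the number of genes tested in brackets. The medians run from -0.16 for the hnRNP genes to 0.02 for the exon junction and nonsense-mediated decay genes.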

How the data were processed

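RNA sequencing of 3 WT and 3 cKO libraries was grouped by the titles in the labels. Genome mm10 and the tools HTSeq, DESeq2, SAMtools, TopHat2, HISAT and HISAT2 appear in the submitters' processing notes, with neither roles nor versions; the annotation they counted against is named in none of the sources used here. The authors deposited a signal per gene and library, which its values show to be gene counts divided by a size factor. Beside it the deposited table gives the authors' log2 fold change, its test score (a Wald statistic) and p-values, quoted here only where named. Each value was a whole multiple of the value of 1 read (100% of values in each library, within 0.01 read), so whole reads were recovered (edgeR called 0 genes on them, DESeq2 23 and limma-voom 0), and 1 read was worth 0.506 to 2.04 normalized counts. Intervals cover the spread between libraries. Rows without a gene name (10) held under 0.00194% of the reads of any library.

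The main test was limma 3.58.1 (R 4.3.3) applied to log2(value + 1) with the trend option, a scale that understates changes of low genes, for the 14678 genes whose mean reached 1, with genotype alone in the model. All 30 members passed that filter. Alternatives were edgeR 4.0.16, DESeq2 1.42.0 and limma-voom on recovered reads, other pseudocounts, filters and scalings, a term for replicate 1, the replicate number as a block and single libraries left out. The limma and edgeR fits were tested on simulated data. Exon lengths (of protein-coding transcripts, or of all transcripts where stated) and positions came from GENCODE M21 (19589 of 19680 identifiers found). Values in every library were printed for members whose groups did not overlap, the 6 of each family with the smallest p, the 3 of each with the highest level per kb, and Srsf1, Srsf3, Hnrnpk, Hnrnpl, Hnrnpll and Hnrnpu. From each related list the 4 genes with the smallest p could be named. Members and lists were chosen with earlier results of these data known.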

Additional observations from a re-analysis of the deposited data

How the results depend on the processing

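Over 24 alternative fits 0 members were called in any of the 23 with a test, and the smallest adjusted p of any member was 0.408. Filtered edgeR, limma-voom, DESeq2 and the fits with a term for replicate 1 called 0% to 0.376% of all genes, so 0 members is near background. At an unadjusted p under 0.05 their shares were 2.84% to 9.16%. Shares for the other alternatives are not given here. The count of members at an unadjusted p under 0.05 was 1 in place of 0 with a pseudocount of 5, a minimum mean of 10, TMM factors, protein-coding genes only, the term for replicate 1 (limma and DESeq2), replicates 2 and 3 alone and the replicate block, and 0 to 2 with single libraries left out. The labels call the mice paired but do not say that a number marks a pair, and the numbers were not shown to pair the libraries: deviations from the group means correlated at 0.69, 0.054 and 0.31 for numbers 1, 2 and 3, WT replicate 2 and cKO replicate 3 at 0.15, and the replicate block called 0 members (1 at an unadjusted p under 0.05). The sign of 12 of the 30 members held in every alternative that gave a value. The others turned in at least 1, and the cause was not tested. Library totals alone gave -0.025 for Srsf5, -0.021 for Hnrnpdl, -0.046 for Srsf9 and -0.017 for Hnrnpc. With that scaling the median over all 14678 genes tested was itself -0.079, against -0.0019 in the main fit. Quantile normalization gave 0.020 for Srsf4 and 0.025 for Srsf3, and replicates 2 and 3 alone gave -0.036 for Srsf9. Replicate 1 alone gave a median of 0.0079 for SR genes and -0.031 for hnRNP genes, and 0.054 for Hnrnpa0, 0.070 for Hnrnph1, 0.028 for Hnrnpl, 0.046 for Srsf6, 0.21 for Hnrnph3, 0.030 for Hnrnpab, -0.36 for Hnrnpll, 0.21 for Hnrnpu, 0.037 for Hnrnpa1, 0.022 for Srsf11, -0.015 for Hnrnpc and 0.038 for Srsf3. Replicates 1 and 3 alone, chosen after the values were seen, gave 16 negative members, medians of 0.019 for SR genes and -0.044 for hnRNP genes, and 0.012 for Hnrnph1, 0.031 for Hnrnpl, 0.0503 for Hnrnph3, 0.013 for Hnrnpab, -0.029 for Srsf5, 0.063 for Srsf7, 0.041 for Srsf4, 0.088 for Srsf2, 0.087 for Hnrnpu, 0.013 for Hnrnpa1 and 0.056 for Srsf3. With single libraries left out, the values ranged from -0.14 to 0.018 for Hnrnpa1, -0.023 to 0.12 for Hnrnpc, -0.18 to 0.24 for Hnrnpdl, -0.31 to 0.014 for Hnrnph3, -0.27 to 0.028 for Hnrnpl, -0.29 to 0.0048 for Hnrnpu, -0.30 to 0.0068 for Srsf11, -0.19 to 0.035 for Srsf2, -0.1004 to 0.046 for Srsf3, -0.13 to 0.073 for Srsf4, -0.11 to 0.20 for Srsf5, -0.16 to 0.057 for Srsf7 and -0.20 to 0.20 for Srsf9. So left out, the median was -0.14 to -0.036 for SR genes and -0.21 to -0.088 for hnRNP genes (without cKO replicate 2), and the count of negative members 21 (without cKO replicate 2) to 26. Hnrnpll had the fewest reads, 1 to 13 per library, and edgeR's filter, limma-voom and the minimum mean of 10 left it out. The other 29 had 116 to 17884, with Hnrnph3 at 116 and 122 in cKO replicates 2 and 3. How far depth limits these 29 was not tested.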
